A study of Mus musculus with 4 samples.

Results

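The chromatin accessibility of 9 histone deacetylase genes (Hdac1, Hdac2, Hdac3, Hdac4, Hdac5, Hdac7, Hdac9, Hdac10 and Hdac11) was compared between mesenchymal stem cells (MSCs) of old and of young mice. A peak was assigned to a gene if it overlapped the gene, introns included, or the 5 kb before its start in the GENCODE vM21 annotation. This gave 89 of the 117282 peaks of the table. ATAC-seq, in which a transposase cuts and tags open DNA, had been carried out on 2 samples from old mice (18 to 22 months of age) and 2 samples from young mice (3 to 5 months of age). All 4 samples had been cultured at 2% O2 in the same supplemented αMEM, and the labels name no genotype, sex or other treatment. Nothing in the labels says that the samples came from separate animals or cultures, so the p-values given here measure only the spread between these samples, which may be technical.

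Histone deacetylases remove acetyl groups from histone tails, and the loss of acetylation goes with closed chromatin and lower transcription. The class I enzymes Hdac1, Hdac2 and Hdac3 are nuclear and act as the catalytic subunits of corepressor complexes. The class IIa enzymes Hdac4, Hdac5, Hdac7 and Hdac9 have weak catalytic activity of their own, shuttle between nucleus and cytoplasm when phosphorylated, and bind MEF2 transcription factors. Hdac4 is known from cartilage and bone, where it restrains Runx2 and chondrocyte hypertrophy. Hdac10 is the class IIb polyamine deacetylase, and Hdac11 is the sole class IV enzyme. Accessibility at these genes measures the openness of their DNA, and neither their transcription nor their enzyme activity was measured.

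The promoter sequences differed between the genes and between starts of 1 gene. No promoter window of Hdac1, Hdac3 or Hdac10 was examined. For Hdac3 this need not mean that the RefSeq promoter table (GRCm38.p6) lists no start. From that table, 10 start sites of 6 of the 9 genes were used. The 250 bases before 4 of these starts are shown because they include CpG-rich and CpG-poor promoters. They are written 5′ to 3′ along the gene's strand, with capitals marking CCAAT (bound by NF-Y) and GGGCGG (bound by SP and KLF factors) on either strand.
Hdac2, chr10:36974294-36974543, plus strand: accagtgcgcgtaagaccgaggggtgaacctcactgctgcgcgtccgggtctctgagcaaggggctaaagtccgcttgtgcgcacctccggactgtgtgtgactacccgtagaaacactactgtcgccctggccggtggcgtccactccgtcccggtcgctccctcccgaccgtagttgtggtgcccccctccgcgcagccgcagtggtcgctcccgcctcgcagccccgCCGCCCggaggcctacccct
Hdac4, chr1:92180342-92180591, minus strand: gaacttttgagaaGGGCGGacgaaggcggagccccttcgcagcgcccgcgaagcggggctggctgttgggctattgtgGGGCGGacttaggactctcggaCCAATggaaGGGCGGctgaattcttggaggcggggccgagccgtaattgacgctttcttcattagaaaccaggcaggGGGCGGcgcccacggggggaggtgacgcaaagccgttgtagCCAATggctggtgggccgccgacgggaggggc
Hdac5, chr11:102230173-102230422, minus strand: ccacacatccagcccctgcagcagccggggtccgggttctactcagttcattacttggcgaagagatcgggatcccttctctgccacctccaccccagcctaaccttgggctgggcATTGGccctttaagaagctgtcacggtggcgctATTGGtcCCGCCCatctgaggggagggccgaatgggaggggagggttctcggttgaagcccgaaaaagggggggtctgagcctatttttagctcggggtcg
Hdac9, chr12:34528890-34529139, minus strand: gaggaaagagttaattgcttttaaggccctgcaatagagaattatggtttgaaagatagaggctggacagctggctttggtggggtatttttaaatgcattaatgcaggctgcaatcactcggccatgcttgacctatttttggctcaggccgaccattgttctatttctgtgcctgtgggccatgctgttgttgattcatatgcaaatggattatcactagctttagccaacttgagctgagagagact
The ratio of observed CpG to that expected from the C and G content was 0.931 at Hdac2 and 0.93 at Hdac4, at percentiles 90.4 and 90.3 of 32817 mouse promoter windows, whose median was 0.373. It was 0.649 at Hdac11 and 0.521 at this Hdac5 start. At the Hdac9 start shown it was 0.175, at percentile 26.0, and the 5′ Hdac9 start had no CpG. Within Hdac7 the ratio ran from 0.222 to 0.885 over 4 starts. The Hdac4 window held GGGCGG 4 times and CCAAT 2 times, and the Hdac9 window held neither. Among the 10 windows, GGGCGG occurred in 5 against 32.7% of all windows, and CCAAT in 3 against 33.8% of all. CCGGAAG (ETS factors) was in 0 of the 10 windows and in 6.9% of all, and TGACGTCA (the cyclic AMP response element) was in 0 of 10 and in 1.55% of all.

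Most of the 89 peaks lay away from the start sites. Hdac4 carried 28 peaks and Hdac9 carried 37, which together made 73.0% of them, whereas Hdac2 had 1 peak, Hdac1 had 2, Hdac3 and Hdac10 had 3 each, Hdac5 had 4, Hdac7 had 5 and Hdac11 had 6. Of all 89, 57 were intronic, 11 lay no further than 1 kb from a protein-coding start of the gene (promoter peaks), 11 overlapped a coding exon, 5 an exon of a noncoding transcript and 2 a UTR. The remaining 3 lay upstream, at Hdac7, Hdac10 and Hdac11. The promoter peaks had a median GC content of 54.2% and the other 78 peaks one of 44.6%, near the medians of 51.8% over all 16205 promoter peaks and 45.3% over all other peaks of the table. The 78 include some at the start of another gene, whereas the other peaks of the table exclude those near any protein-coding start.

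The intronic peaks with the lowest p-value of Hdac4 and of Hdac9 are shown by their middle 300 bases, on the plus strand of GRCm38, with capitals marking GGAATG (TEAD factors) and TGTGGTT (RUNX factors) on either strand.
Hdac4 intronic peak, chr1:92096951-92097250: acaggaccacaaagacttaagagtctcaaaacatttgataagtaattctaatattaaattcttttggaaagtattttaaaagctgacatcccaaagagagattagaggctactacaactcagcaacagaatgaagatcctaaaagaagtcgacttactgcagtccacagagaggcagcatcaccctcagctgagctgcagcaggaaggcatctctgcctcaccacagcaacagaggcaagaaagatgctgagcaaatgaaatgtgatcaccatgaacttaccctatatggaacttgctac
Hdac9 intronic peak, chr12:34327001-34327300: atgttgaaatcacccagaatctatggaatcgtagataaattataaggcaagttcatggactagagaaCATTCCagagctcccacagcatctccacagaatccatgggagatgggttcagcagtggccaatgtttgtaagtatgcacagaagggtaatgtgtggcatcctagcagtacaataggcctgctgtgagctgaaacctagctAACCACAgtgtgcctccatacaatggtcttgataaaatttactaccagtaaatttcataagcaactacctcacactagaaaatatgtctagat
The Hdac4 window held none of the 3 motifs searched, and the Hdac9 window held GGAATG and TGTGGTT once each. Over the 74 peaks that were not within 1 kb of any protein-coding start, TGACTCA (AP-1) was in the middle 300 bases of 18 (24.3%), against 17.8% of 101077 such peaks in the table. TGTGGTT was in 9 (12.2%) against 10.8% of all, and GGAATG in 15 (20.3%) against 22.1% of all.

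Each deposited value is a count per 10000000 counts of the library, with no correction for how long the peak is. The libraries held between 28259470 and 32559794 counts, and the share of counts inside peaks was 43.8% and 50.3% in the old and 57.5% and 62.9% in the young samples. Values were therefore divided by RLE factors (0.817 and 1.01 for old replicates 1 and 2, 1.07 and 1.15 for young replicates 1 and 2), which set the typical peak equal between samples, and these are called scaled values. As deposited, the median log2 difference (old minus young) over the whole table lay between −0.48 and −0.074 in the 4 pairs of samples, and after scaling it lay between −0.013 and 0.0045. Values below are scaled and changes are relative to that shift, except where they are said to be as deposited. In single peaks of these genes the counts ranged from 1 to 1523, and 1 peak had a sample with 3 counts or fewer. All 12 MSC marker genes had a promoter peak, and their summed scaled values per kb were 211 and 248 in old and 208 and 205 in young samples. Of the blood markers, Csf1r had one, with scaled values per kb of 17.5 and 26.9 in old samples and between these in both young samples, while Ptprc, Cd3e, Itgam, Adgre1 and Hbb-bt had none. Of 4 endothelial markers all but Cdh5 had one, with scaled sums per kb of 51.3 and 51.4 in old and 54.8 and 52.7 in young samples. These 3 did not move together: Tek was lower in both old samples (16.9 and 17.4 against 31.1 and 26.8), and Pecam1 (13.9 and 14.8 against 7.84 and 9.60) and Kdr (20.5 and 19.2 against 15.8 and 16.3) were higher. The part of other cells in the results was not tested.

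Nearly every gene was open at its start. Of 33 annotated coding starts, 22 lay inside a peak and 11 outside, and the share over the coding starts of all genes was not counted. The exceptions at the 5′ ends were Hdac7, whose 4 most upstream starts lay between 2864 and 3202 bp from the nearest of its peaks, and Hdac9, whose only promoter peak covered an internal cluster of starts. Per kb of peak and averaged over the 4 samples, the value as deposited was highest at the Hdac2 promoter (55.5 per kb, from 41.8 to 64.1 over the samples). Hdac4 followed with 54.7 (36.5 to 64.2), Hdac11 with 52.4 (35.9 to 67.2), Hdac1 with 50.5 (33.9 to 58.0) and Hdac10 with 46.4 (38.8 to 50.4). Lower values were found at Hdac3 with 35.7 (28.0 to 42.9), Hdac7 with 30.6 (24.8 to 34.1), Hdac9 with 24.9 (18.4 to 31.9) and Hdac5 with 23.0 (19.1 to 30.6). All neighbours in this order overlapped in their range over samples. Among all promoter peaks of the table these values ranked between percentile 41.2 at Hdac5 and percentile 86.9 at Hdac2. The promoter peaks held 100% of the summed signal of Hdac2, 79.0% at Hdac5, 63.5% at Hdac11 and 59.1% at Hdac10. This share was 47.1% at Hdac3, 46.3% at Hdac7, 36.0% at Hdac1, 28.9% at Hdac4 and 5.93% at Hdac9. At Hdac1 the rest was a peak at the start of Marcksl1. At Hdac3, Hdac7 and Hdac10 the rest included a peak at the start of Diaph1, Slc48a1 and Tubgcp6, respectively.

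**Figure D1:**
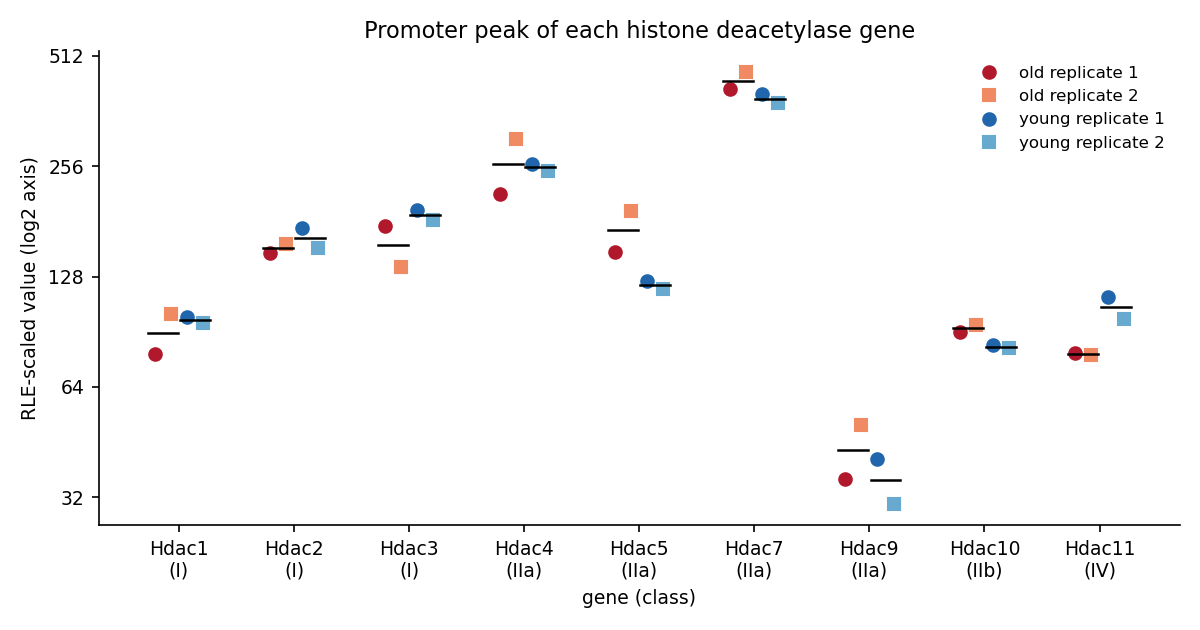
Scaled value (deposited value divided by the RLE factor, log2 axis) of the promoter peak with the highest mean value of each of the 9 genes, with the class in brackets. Points are single samples and black bars are group means (n = 2). Both old samples lay above both young ones at Hdac5, Hdac7 and Hdac10, and below them at Hdac3 and Hdac11, and the groups overlapped at Hdac1, Hdac2, Hdac4 and Hdac9. Over all promoter peaks of the table, both old samples lay above both young ones at 15.7% and below them at 25.7%.

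Between old and young MSCs, 0 of the 89 peaks passed the threshold (limma, adjusted p under 0.01 over all 117282 peaks), as did 66 peaks of the whole table, or 0.0563%. The lowest limma adjusted p among the 89 was 0.0767. At an unadjusted p under 0.05, 7 peaks (7.87%) were higher and 5 (5.62%) lower in old MSCs, against 7.49% and 8.87% of all peaks. Limma-voom on the whole counts also called 0 of the 89, with 12 at an unadjusted p under 0.05, and limma without trend or robust moderation called 0, with 9 at that level. The median log2 fold change of the 89 peaks was 0.032, and that of all peaks 0.0011. In scaled values both old samples lay above both young ones at 22 peaks (24.7%, against 23.2% of the table), below them at 18 (20.2%, against 24.2%), and the groups overlapped at the other 49. As deposited, the corresponding numbers were 3 peaks above (3.37%, against 7.56%) and 29 below (32.6%, against 43.5%). Counted this way, the shares at these genes were near or under those of the table. In a bulk sample, fewer cells with an open site and less cutting per cell cannot be told apart.

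The count of 0 was not kept when 1 old sample was left out, but calls then rose over the whole table too. Fits without 1 sample leave 1 sample in a group, which is assumed to vary like the other group. Only log2 fold changes are therefore given from these fits, and their calls are not read as results about these genes. On the log2 scale old replicate 2 lay above old replicate 1 at 62 of the 89 peaks, by a median of 0.22. Over all peaks it lay above at 49.0%, with a median difference of −0.0098. It lay above at 21 of 28 Hdac4 peaks and 26 of 37 Hdac9 peaks, but at 3 of 6 class I peaks and 2 of 5 Hdac7 peaks. At Hdac9, young replicate 2 also lay above young replicate 1 at 26 of the 37. Over all peaks the median absolute difference was 0.312 between the old and 0.214 between the young samples. The median of the 89 peaks relative to the young mean was −0.13 in old replicate 1 and 0.15 in old replicate 2. Leaving out old replicate 2 moved the median log2 fold change to −0.12, and leaving out old replicate 1 moved it to 0.14.

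**Figure D2:**
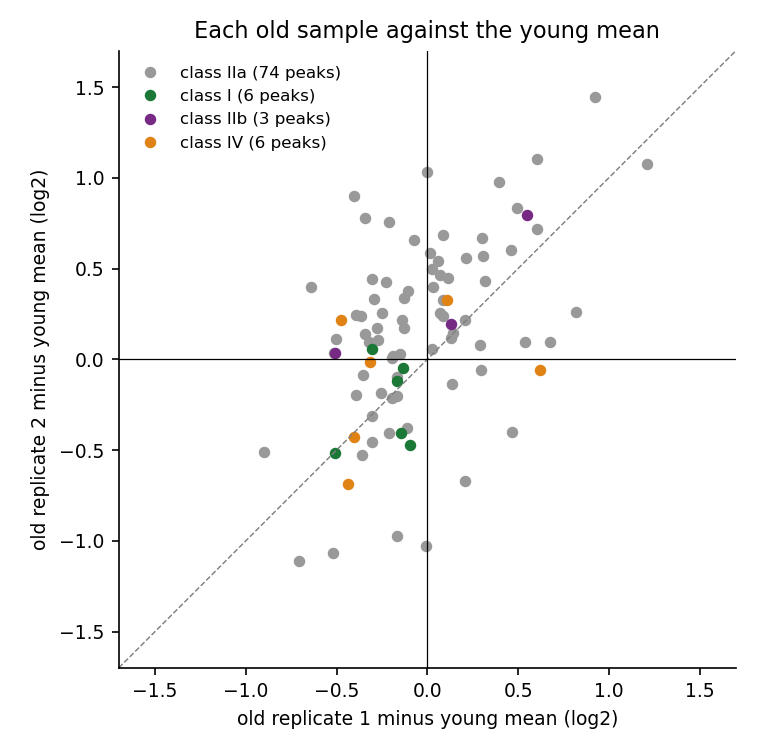
Each of the 89 peaks by its log2 difference from the mean of the young samples, in old replicate 1 (x axis) and old replicate 2 (y axis), coloured by class. Points above the dashed diagonal, 62 of 89, were higher in old replicate 2. All 6 class I peaks lay left of zero in old replicate 1, and 5 of them also lay below zero in old replicate 2.

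In class I, all 6 peaks of Hdac1, Hdac2 and Hdac3 had a log2 fold change below 0, against 58496 of 117282 in the table. Their median was −0.21. At 4 of them both old samples lay below both young ones (66.7%, against 24.2% of the table and 25.7% of its promoter peaks). None passed the threshold, 1 had an unadjusted p under 0.05, and peaks of 1 gene are not independent of each other. As deposited, both old samples lay below both young ones at all 6, against 43.5% of the table and 50.6% of its promoter peaks.

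The lowest of these values came from a peak shared with a neighbour. The peak at chr4:129510401-129519000 overlaps the 3′ end of Hdac1, a subunit of the SIN3, NuRD and CoREST complexes, but also contains the start of Marcksl1. Its scaled values were 137 and 136 in old and 201 and 189 in young samples. The old samples were nearly equal and both lay well below the young ones, with a log2 fold change of −0.51 ± 0.15 (SE; limma adjusted p = 0.0917). Leaving out old replicate 1 gave −0.52 and leaving out old replicate 2 gave −0.50. The value was −0.47 without young replicate 1 and −0.56 without young replicate 2. The promoter peak of Hdac1 itself, at chr4:129541501-129543400, had 78.8 and 101 in old and 99.3 and 95.7 in young samples. The groups overlapped there (log2 fold change −0.12 ± 0.18, limma adjusted p = 0.784), and without old replicate 1 the sign turned, to 0.052.

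Hdac2, the close paralogue of Hdac1 in the same complexes, had a single peak, over its promoter at chr10:36973401-36976300. The scaled values of 149 and 157 in old and 173 and 154 in young samples overlapped, and the log2 fold change was −0.092 ± 0.15 (limma adjusted p = 0.813). Hdac3, the catalytic subunit of the NCoR and SMRT complexes, had 3 peaks on chromosome 18. At each of them both old samples lay below both young ones, against 24.2% of the table, and 0 of the 3 had an unadjusted p under 0.05. The Hdac3 promoter peak from 37953001 to 37957900, which also covers the start of Rell2, had 176 and 136 in old and 194 and 183 in young samples. The log2 fold change was −0.28 ± 0.16 (limma adjusted p = 0.391). Old replicate 2 was the lower of the old samples, and the value was −0.47 without old replicate 1 but −0.088 without old replicate 2. The intronic peak from 37948601 had 30.4 and 25.2 in old and 36.3 and 31.3 in young samples. The last one, from 37932401, contains the start of Diaph1 and had 152 and 157 against 170 and 170, the smallest change of the 3 (−0.14 ± 0.15).

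In class IIa, the 74 peaks of Hdac4, Hdac5, Hdac7 and Hdac9 had a median log2 fold change of 0.084, with 44 above 0 and 30 below. At an unadjusted p under 0.05, 7 of them (9.46%) were higher in old MSCs and 3 (4.05%) lower, against 7.49% and 8.87% of all peaks.

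**Figure D3:**
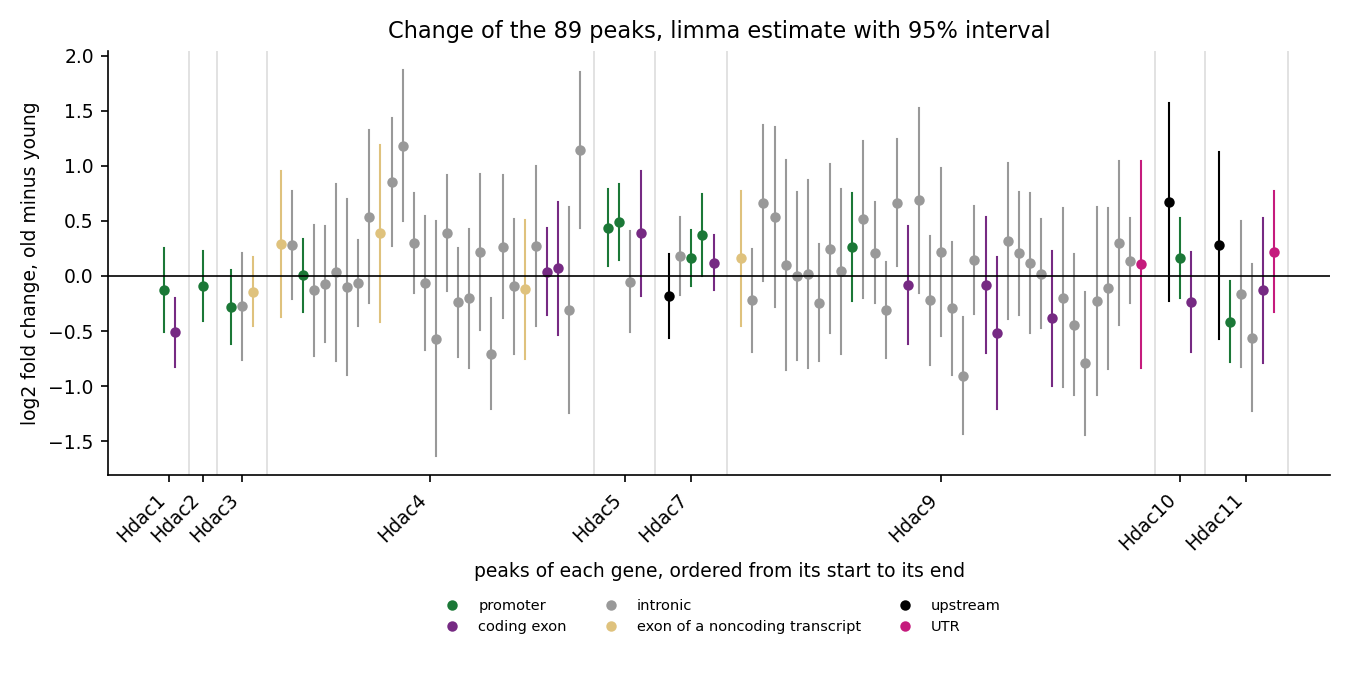
Log2 fold change (old minus young, limma on log2 of scaled value plus 1) of each of the 89 peaks with its 95% confidence interval, grouped by gene and ordered from the start to the end of the gene, coloured by annotation. The estimates ran from −0.91 at an Hdac9 intron to 1.18 at an Hdac4 intron, and no peak passed the threshold.

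At Hdac4 the old samples differed widely from each other. Its promoter peak at chr1:92177001-92181800 had scaled values of 214 and 305 in old and 260 and 249 in young samples, so the old samples lay on either side of the young ones. The log2 fold change was 0.0049 ± 0.16 (limma adjusted p = 0.993). The densest peak away from the starts, an intronic one at chr1:92127401-92131600, showed the same layout, with 109 and 166 in old and 148 and 133 in young samples (log2 fold change −0.064 ± 0.19, limma adjusted p = 0.902). Over its 28 peaks, old replicate 2 lay above old replicate 1 at 21, by a median of 0.38 on the log2 scale, and the young samples differed by a median of −0.069.

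Against this background, single introns of Hdac4 held differences of opposite sign. At an unadjusted p under 0.05, 3 of the 28 Hdac4 peaks (10.7%) were higher and 1 (3.57%) lower in old MSCs, and these 4 are described here. Over all peaks the shares were 7.49% and 8.87%. The peak at chr1:92096701-92097500, whose middle is printed above, had the lowest p of the 89, with scaled values of 11.6 and 17.0 in old and 6.27 and 5.02 in young samples. Both old samples lay above both young ones. The log2 fold change was 1.18 ± 0.33 (limma adjusted p = 0.0767), or 1.45 without old replicate 1 and 0.93 without old replicate 2. The next peak towards the start of the gene, from 92099301 to 92101100, had 22.3 and 31.9 against 11.9 and 17.1, again with all old above all young values. Its log2 fold change was 0.86 ± 0.28 (limma adjusted p = 0.127), with 1.11 without old replicate 1 and 0.62 without old replicate 2. Another intronic peak, from 91941101 to 91942300 near the 3′ end, had 12.4 and 11.2 against 5.94 and 3.84, a log2 fold change of 1.14 ± 0.34 (limma adjusted p = 0.0969). The largest difference in the other direction was at chr1:92041501-92043100, with 19.7 and 26.1 in old and 34.7 and 40.7 in young samples (log2 fold change −0.70 ± 0.24, limma adjusted p = 0.145). These 4 peaks were small beside the promoter peak, whose lowest value was 214.

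Hdac5 had its 2 promoter peaks higher in both old samples in scaled values, against 15.7% of all promoter peaks of the table. As deposited the groups overlapped at both. The peak over the internal start, at chr11:102214801-102221200, had scaled values of 150 and 194 in old and 124 and 118 in young samples. The log2 fold change was 0.49 ± 0.17 (limma adjusted p = 0.145), and as deposited it was 0.20 (limma adjusted p = 0.688). It was 0.67 without old replicate 1 and 0.31 without old replicate 2. The peak over the 5′ starts, from 102223101 to 102230900, which holds the Hdac5 sequence printed above, had 127 and 152 against 104 and 101, a log2 fold change of 0.44 ± 0.17 (limma adjusted p = 0.196). This was 0.57 without old replicate 1, 0.32 without old replicate 2 and 0.15 as deposited (limma adjusted p = 0.776). Old replicate 2 was the higher old sample at both. In that sample the median peak of chromosome 11 lay 0.17 above that of the autosomes on the log2 scale, whereas the other 18 autosomes lay between −0.10 and 0.074. In old replicate 1 the shift of chromosome 11 was 0.025. Set against the median of its own chromosome, the summed value of Hdac5 differed by 0.29 in place of 0.39. The part of this shift in the Hdac5 values was not tested otherwise. The 2 other Hdac5 peaks, in an intron and over a coding exon, overlapped between the groups.

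Hdac7, which is known from endothelium and from the repression of Runx2 in osteoblasts, had wide peaks. Its main promoter peak spanned 13.7 kb (chr15:97819801-97833500) and had scaled values of 416 and 462 in old and 402 and 381 in young samples. The old values were all higher, by a log2 fold change of 0.16 ± 0.12 (limma adjusted p = 0.540). The peak in the intron between this promoter and the 5′-most starts, from 97836401 to 97841300, had 122 and 105 against 102 and 96.5 (log2 fold change 0.18 ± 0.17, limma adjusted p = 0.635). At the peak over the internal start from 97811701 to 97817100, the values were 93.7 and 102 against 75.9 and 74.4. This was the largest difference of the gene, with a log2 fold change of 0.37 ± 0.18 (limma adjusted p = 0.302). The peak of 19.4 kb at the 3′ end also holds the start of Slc48a1 and had 403 and 399 against 372 and 365. Thus 4 of the 5 Hdac7 peaks did not overlap between the groups, all with higher old values, against 23.2% of the table. As deposited, 0 of the 5 were higher and 2 were lower in both old samples, against 7.56% and 43.5% of the table. The exception among the scaled values was the upstream peak, with 86.9 and 84.6 in old and 110 and 86.5 in young samples, where old replicate 1 and young replicate 2 were nearly equal.

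Hdac9 spans 869.5 kb, and its accessible sites were spread over its introns. The promoter peak at the internal starts (chr12:34528101-34529700) had scaled values of 36.0 and 50.4 in old and 40.6 and 30.7 in young samples, which overlapped (log2 fold change 0.26 ± 0.24, limma adjusted p = 0.621). The densest peak of the gene was not this promoter but an intronic one towards the 3′ end, at chr12:34074601-34077600, with 98.0 and 137 against 99.7 and 112 (log2 fold change 0.14 ± 0.18, limma adjusted p = 0.762). It is 1 of 7 peaks at the 3′ end for which the nearest coding start is that of Twist1, a neighbour whose enhancers are known to lie in introns of Hdac9. The 3 peaks at the 5′ end were nearest to the start of Prps1l1.

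The lowest p of Hdac9 was found in the intron at chr12:34326401-34327900, printed above. Its scaled values were 18.4 and 13.7 in old and 29.7 and 31.6 in young samples, so that both old samples lay far below both young ones. The log2 fold change was −0.91 ± 0.25 (limma adjusted p = 0.0801), with −1.12 without old replicate 1 and −0.70 without old replicate 2. A second intronic peak with lower old values, from 34146401 to 34147500, had 10.7 and 6.98 against 13.5 and 18.3 (log2 fold change −0.79 ± 0.31, limma adjusted p = 0.209). In the opposite direction, the intronic peak from 34471701 to 34473600 had 18.0 and 23.1 in old and 11.2 and 13.9 in young samples (log2 fold change 0.66 ± 0.28, limma adjusted p = 0.237). The largest value above 0 among peaks without overlap was at chr12:34415901-34416500, a weak peak with 5.14 and 8.19 against 4.95 and 2.66 (log2 fold change 0.69 ± 0.40, limma adjusted p = 0.412). Over the 37 peaks the median log2 fold change was 0.042. Both old samples lay above both young ones at 6 (16.2%, against 23.2% of the table) and below them at 8 (21.6%, against 24.2%).

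**Figure D4:**
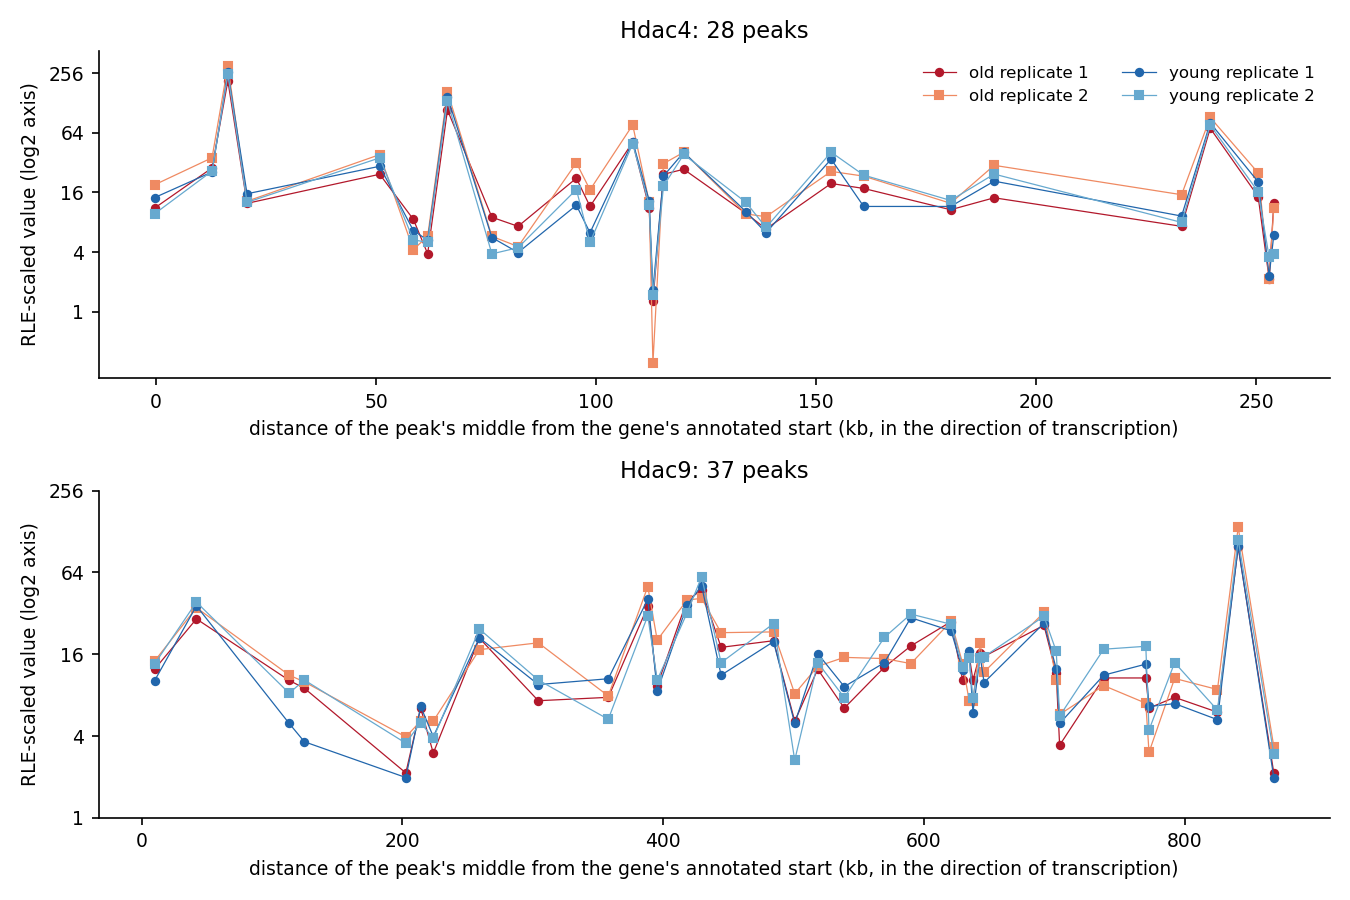
Scaled value (log2 axis) of each peak of Hdac4 (28 peaks) and Hdac9 (37 peaks) in the 4 samples, against the distance of the middle of the peak from the annotated start of the gene in kb. Lines only link the peaks of 1 sample. The highest peak of Hdac4 is its promoter peak, with values from 214 to 305, and the highest of Hdac9 is an intronic peak towards the 3′ end, with values from 98.0 to 137.

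Hdac10 and Hdac11 stood for classes IIb and IV. The Hdac10 promoter peak (chr15:89127601-89129500) had scaled values of 90.3 and 94.7 in old and 83.2 and 81.8 in young samples. The groups did not overlap but differed by less than their errors (log2 fold change 0.16 ± 0.17, limma adjusted p = 0.691). Its small upstream peak had 3.42 and 4.25 against 1.98 and 2.07. The peak at the 3′ end, which contains the start of Tubgcp6, overlapped between the groups. The promoter peak of Hdac11 at chr6:91155901-91157700 had 79.2 and 78.0 in old and 113 and 98.0 in young samples. The old values were nearly equal and lay below both young ones, with a log2 fold change of −0.42 ± 0.18 (limma adjusted p = 0.246). Of the 5 other Hdac11 peaks, 1 intronic peak was lower in both old samples (8.13 and 6.67 against 9.90 and 13.0), the UTR peak was higher in both, and 3 overlapped. Over the whole table, 24.2% of peaks were lower and 23.2% higher in both old samples.

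Summed over all peaks of a gene, the 9 genes did not differ between the groups beyond the threshold. Limma over 17308 protein-coding genes with a peak called 2 genes (0.0116%) and 0 of the 9. At an unadjusted p under 0.05, Hdac5 was higher and Hdac1 lower, against 3.58% of all genes higher and 4.74% lower, and the lowest limma adjusted p of the 9 was 0.558. The scaled sums of Hdac1 were 216 and 238 in old and 301 and 285 in young samples, a log2 fold change of −0.37 (95% interval −0.66 to −0.078). Without the peak at the start of Marcksl1 it was −0.12. With that peak it was −0.43 without old replicate 2 and −0.30 without old replicate 1. Hdac11 had 128 and 134 against 168 and 152 (−0.29, interval −0.62 to 0.047), and Hdac3 had 358 and 317 against 401 and 384 (−0.22, interval −0.50 to 0.060). For Hdac3 the value was −0.31 without old replicate 1 and −0.12 without old replicate 2.

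The sums of Hdac5 were 336 and 431 in old and 294 and 288 in young samples, a log2 fold change of 0.39 (interval 0.065 to 0.71). This was 0.56 without old replicate 1, 0.22 without old replicate 2 and 0.098 as deposited (limma adjusted p = 0.806). Hdac7 had 1121 and 1152 against 1062 and 1004 (0.14, interval −0.090 to 0.37). At the 4 other genes the groups overlapped, and how often such sums overlap over all genes was not counted. Hdac4 had 764 and 1064 against 878 and 858 (0.055, interval −0.27 to 0.38). Here the old samples disagreed in sign: the value was 0.29 without old replicate 1 and −0.17 without old replicate 2. Hdac9 had 613 and 708 against 625 and 694 (0.00098, interval −0.27 to 0.27). Hdac2 had an interval of −0.42 to 0.24 and Hdac10 one of −0.32 to 0.37. The median over all 17308 genes was −0.013. As deposited, the sums of Hdac4, Hdac7, Hdac9 and Hdac10 had negative values in place of positive ones, between −0.29 and −0.15.

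**Figure D5:**
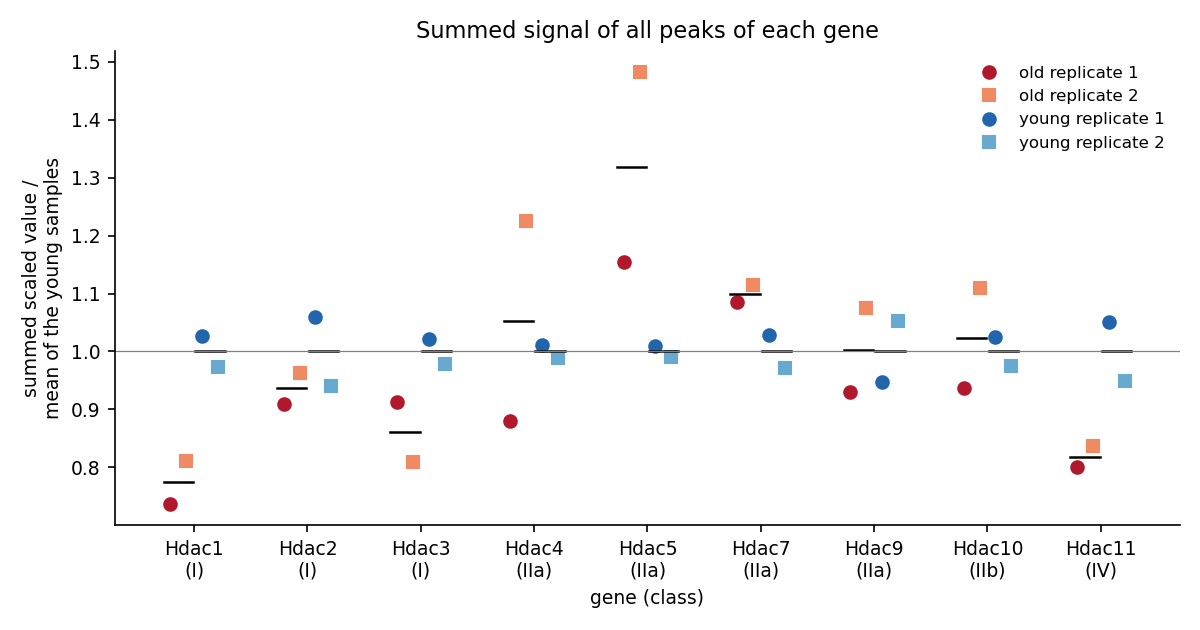
Summed scaled value of all peaks of each gene, divided by the mean of the young samples. Points are single samples and black bars are group means (n = 2). Both old samples lay below 1 and below both young samples at Hdac1, Hdac3 and Hdac11, both lay above at Hdac5 and Hdac7, and the old samples of Hdac4 lay on either side. How often such sums do not overlap over all genes was not counted.

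The genes that act with the deacetylases were examined as a list of 56 symbols. The annotation held 55 of them, all with a peak, and 1 symbol (Mideas) was not found in it and was not analysed here. The list holds the subunits of the SIN3, NuRD, CoREST, NCoR and SMRT, MIDEAS and MIER complexes, the class IIa partners and their kinases, and the remaining classical deacetylases Hdac6 and Hdac8. None of the 55 passed the threshold in limma. At an unadjusted p under 0.05, Camk4 was higher (log2 fold change 0.40), and Mier1 (−0.36) and Hdac6 (−0.36), the cytoplasmic tubulin deacetylase, were lower. These counts of 1 and 2 stand against 3.58% and 4.74% of all genes. The median over the list was −0.026, near that of all genes, with 23 genes above and 32 below 0. The share below 0 was 58.2%, against 52.6% of all genes. By group, the genes below 0 were 10 of 15 for SIN3, 6 of 9 for NuRD, 4 of 8 for CoREST and 1 of 5 for NCoR and SMRT. They were 4 of 4 for the MIDEAS and MIER complexes, 5 of 12 for the class IIa partners and kinases, and both of Hdac6 and Hdac8. Differences between these groups were not tested. Of the 310 peaks of the list, 0 passed the threshold, and 22 (7.10%) were higher and 18 (5.81%) lower at an unadjusted p under 0.05, against 7.49% and 8.87% of all peaks.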

How the data were processed

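ATAC-seq was measured in 4 samples. Per the labels, the authors mapped reads to mm10 with Bowtie2 and used Picard; versions and the peak caller are not given in the sources used here. The deposited table gives each peak a score per sample, which the authors named RPKM. All values (100% in each sample, tolerance 0.1 of a count) were whole multiples of 1 step per sample, equal to 10000000 divided by the library total, and were not divided by peak length. The library totals of 28259470 to 32559794 counts limit the precision at small peaks.

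The members and lists were chosen with earlier results of these data known. Values were divided by RLE factors, and log2(value + 1) was tested with limma 3.58.1 in R 4.3.3 (eBayes with trend and robust moderation) over all 117282 peaks, with Benjamini-Hochberg adjustment and a threshold of 0.01, two-sided. Fold changes on this scale understate the change of weak peaks. Summed values of peaks per gene were tested likewise over 17308 protein-coding genes. Part of the blood marker list is not reported here. An exact permutation test of 2 against 2 samples cannot go below p = 0.33, so none is given. Named peaks were, for each gene, the promoter peak with the highest mean value, for Hdac4, Hdac7 and Hdac9 the densest peak away from starts and the largest differences in each direction among peaks without overlap, any peak past the threshold, and the 3 peaks with the lowest p. Other peaks and genes named were chosen after their values were seen. Sequences were read from the RefSeq promoter table and the GRCm38 genome, the assembly that mm10 names. Alternatives were the deposited scale, scaling to equal totals or by quantiles, plain moderation, a lower-quartile filter, pseudocounts 0.1 and 5, a replicate block, other peak assignments, values relative to the chromosome and leaving out each sample; limma-voom on whole counts was added after the data were seen. Summaries used Python 3.11.15, numpy 2.4.6, pandas 2.3.3 and matplotlib 3.10.9.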

Additional observations from a re-analysis of the deposited data

How the results depend on the processing

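With 2 samples per group, a fit without 1 sample leaves 1 sample in a group. The calls of such fits are not read as results about these genes. The number of the 89 peaks past the threshold was 0 under each alternative other than leaving out a sample, and ran from 0 to 7 when 1 sample was left out (7 without old replicate 1, 1 without old replicate 2). The median log2 fold change of the 89 peaks ran from −0.12 to 0.14 without 1 sample, and was −0.22 as deposited, where that of all peaks was −0.27. As deposited, the sign turned at the promoter peaks of Hdac10 (−0.12), Hdac4 (−0.28), Hdac7 (−0.13) and Hdac9 (−0.018), at the intronic peaks of Hdac7 from 97836401 (−0.10) and Hdac9 from 34074601 (−0.15), and for the sums of Hdac4 (−0.23), Hdac7 (−0.15), Hdac9 (−0.29) and Hdac10 (−0.26). Quantile normalization gave −0.0042 for the Hdac9 sum. Leaving out 1 sample turned the sign at the Hdac1 promoter (range −0.29 to 0.052), the Hdac4 peaks from 92127401 (−0.36 to 0.24) and 92177001 (−0.24 to 0.25), the Hdac9 peak from 34074601 (−0.095 to 0.38), and the sums of Hdac4 (−0.17 to 0.29), Hdac9 (−0.094 to 0.10) and Hdac10 (−0.083 to 0.15). The cause was not tested. Same-numbered samples did not deviate together (correlation of deviations from the group means −0.0993), so the numbers are not taken as pairs. With a replicate block, limma called 0 of the 89 peaks and 1269 over the table, against 66 without it, and it left the other calls for these genes as they were. Over the table limma called 1385 peaks as deposited, 144 with limma-voom, 95 after quantile normalization, 24 with a pseudocount of 0.1, 15 after the filter on weak peaks and 0 without trend or robust moderation. Peaks with few counts and intervals wider than their change limit what could be seen here.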
